A study of Mus musculus with 7 samples.

Results

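The cholesterol and fatty acid synthesis genes are a list of 31 mouse genes that make sterols and long-chain fatty acids or that regulate their making. All Affymetrix probe sets (groups of short oligonucleotides that read 1 transcript) whose platform symbol was one of the 31 were collected, and the probe set with the highest mean over the 7 arrays stood for its gene. Of the 31 genes, 29 had a probe set, out of 12393 genes on the array, and *Insig1* and *Acat2* were not analysed here. The filter on low signals passed 28 of the 29, and *Mvk*, the kinase of mevalonate, was left out of the tests with signals of 12.2 to 78.9 on the allogeneic arrays and 61 on the syngeneic array. Of the 29 genes, 26 reached the filter in all 4 groups, while *Tm7sf2* and *Fads2* passed it through 3 groups.

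The arrays measured spleen cell RNA in a mouse model of acute graft-versus-host disease, in which donor T cells attack the tissues of an irradiated recipient. All recipients were female C57BL/6 (B6) mice of 9 to 12 weeks, irradiated with 10.0 Gy, given splenocytes intravenously after 4 to 6 h and sampled on day 4. The anti-ICOSL day 0 group (2 arrays) received C3H splenocytes, a mismatched graft, and a monoclonal antibody against ICOSL, the ligand of the T cell costimulator ICOS, from day 0. The anti-ICOSL day 3 group (2 arrays) received the same kind of graft and the antibody from day 3, so that it was sampled after a single day on the antibody. The isotype group (2 arrays) received the same kind of graft and a control antibody, whose start day the labels do not give for these arrays. Antibody was given at 500 µg first and at 200 µg every other day thereafter. On this schedule no later dose fell due in the day 3 group before sampling on day 4, so the 2 anti-ICOSL groups also differed in total dose. The syngeneic group (1 array) received B6 splenocytes, and its labels name no antibody. Experiments held 4 mice in a group, and RNA of allogeneic recipients was combined before hybridization to 2 arrays, so the p-values measure the spread between arrays, which may be technical.

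Cholesterol is built from acetyl-CoA through mevalonate, isoprenoid diphosphates, squalene and lanosterol, and fatty acids are built from the same acetyl-CoA by acetyl-CoA carboxylase and fatty acid synthase, then lengthened by elongases and given double bonds by desaturases. The transcription factors SREBP-2 (gene *Srebf2*), which acts mainly on the sterol genes, and SREBP-1 (*Srebf1*), which acts more on the fatty acid genes, are held in the endoplasmic reticulum when sterols are plentiful and reach the nucleus when sterols run low. T lymphocytes raise both branches of the pathway after antigen receptor stimulation, as they need membrane lipid for growth and division. Macrophages take up lipid from the cells they engulf, and they send cholesterol out again through efflux genes driven by the sterol-sensing LXR receptors.

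SREBP proteins are known to work at sterol regulatory elements beside sites for NF-Y, which binds CCAAT, and Sp1, which binds GC boxes (GGGCGG). The 250 bases before the start of 5 members are shown here because *Tm7sf2* and *Hmgcs1* were the members that passed the test between isotype and syngeneic mice, *Nsdhl* and *Msmo1* act beside *Tm7sf2* in the same stretch of the pathway with opposite differences, and *Fads2* had the largest difference from isotype under day 3 antibody. The sequences are RefSeq's for GRCm38.p6, read 5′ to 3′ on the gene's own strand, at chr19:6067851-6068100 on the minus strand for *Tm7sf2*, chr13:119690101-119690350 on the plus strand for *Hmgcs1*, chrX:72918271-72918520 on the plus strand for *Nsdhl*, chr8:64733579-64733828 on the minus strand for *Msmo1* and chr19:10101504-10101753 on the minus strand for *Fads2*. Capitals mark the CCAAT motif, the GC box GGGCGG and the sterol regulatory element motif TCACNCCAC on either strand, and a motif on the other strand appears as its reverse complement.
Tm7sf2: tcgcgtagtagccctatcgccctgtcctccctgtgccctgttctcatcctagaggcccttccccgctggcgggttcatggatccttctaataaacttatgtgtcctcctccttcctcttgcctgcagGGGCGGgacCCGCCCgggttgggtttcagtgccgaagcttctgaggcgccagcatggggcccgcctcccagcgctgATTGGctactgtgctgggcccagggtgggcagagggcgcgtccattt
Hmgcs1: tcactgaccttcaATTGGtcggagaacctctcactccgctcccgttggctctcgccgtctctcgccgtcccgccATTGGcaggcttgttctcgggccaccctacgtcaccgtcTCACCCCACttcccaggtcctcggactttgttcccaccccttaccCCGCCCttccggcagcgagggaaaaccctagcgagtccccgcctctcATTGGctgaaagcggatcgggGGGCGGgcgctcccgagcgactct
Nsdhl: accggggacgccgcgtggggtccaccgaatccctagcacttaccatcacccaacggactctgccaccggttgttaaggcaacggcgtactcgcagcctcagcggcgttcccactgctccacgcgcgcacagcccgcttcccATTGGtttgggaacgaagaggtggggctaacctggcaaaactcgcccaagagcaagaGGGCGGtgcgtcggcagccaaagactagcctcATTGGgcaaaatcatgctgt
Msmo1: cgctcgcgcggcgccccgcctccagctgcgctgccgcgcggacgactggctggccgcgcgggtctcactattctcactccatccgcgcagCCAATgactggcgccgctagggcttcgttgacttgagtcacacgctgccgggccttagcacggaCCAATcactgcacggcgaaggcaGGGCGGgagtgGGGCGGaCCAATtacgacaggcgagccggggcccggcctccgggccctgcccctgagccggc
Fads2: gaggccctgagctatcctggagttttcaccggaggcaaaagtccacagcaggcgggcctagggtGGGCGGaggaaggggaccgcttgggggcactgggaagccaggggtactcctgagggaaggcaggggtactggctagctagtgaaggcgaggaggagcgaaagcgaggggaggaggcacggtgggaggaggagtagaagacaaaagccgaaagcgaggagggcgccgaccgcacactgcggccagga

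In these windows the *Hmgcs1* promoter held the sterol element motif, with its first base 137 bases before the start, together with 3 CCAAT motifs and 2 GC boxes. The *Msmo1* promoter held 3 CCAAT motifs and 2 GC boxes, the *Nsdhl* promoter 2 and 1, and the *Tm7sf2* promoter 1 and 2. The *Fads2* window held 1 GC box and no CCAAT. Among all members, 22 of the 29 genes had RefSeq windows of this length, 27 windows in all, and 19 of the 27 (70.4%) held CCAAT, against 33.8% of the 32851 windows of all genes. A GC box stood in 19 of the 27 (70.4%), against 32.7% of all windows, and both motifs stood in 15 of the 27 (55.6%), against 11%. The sterol element motif was found in 1 of the 27 member windows (3.7%), and in 1.05% of all windows. The E-box CACGTG was found in 4 of the 27 (14.8%), against 6.02%. These shares describe letters in a window and were not tested, and no capitals overlapped in the windows shown.

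The array values are MAS5 signals, which MAS5 scales so that every array has the same trimmed mean (500.18 to 500.19 here), and the array medians ran from 145.3 to 174.3. Differences are given on the log2(signal + 50) scale, which understates the change of low signals. The fit with limma covered 15372 probe sets that reached the filter signal of 99.7 in at least 1 group, and a probe set was called at a Benjamini-Hochberg adjusted p under 0.05. The labelled splenocytes carried the 7 T cell markers with a probe set, whose signals summed to 33595 to 34903 on the day 0 arrays, 32220 to 33777 on the day 3 arrays and 35651 to 41023 on the isotype arrays, against 24129 on the syngeneic array. The 6 adipocyte markers with a probe set summed to 388 to 493, 553 to 556 and 403 to 482 in the 3 allogeneic groups in that order, and to 476 in the syngeneic group. RNA quality, read as the *Gapdh* signal of the 3′ probe set over that of the 5′ one, gave 0.794 and 0.821 for day 0, 0.838 and 0.865 for day 3, 0.784 and 0.767 for isotype and 0.957 for syngeneic. The same ratio for *Actb* gave 1.02 and 0.982 for day 0, 0.967 and 0.991 for day 3, 1.004 and 1.021 for isotype and 1.028 for syngeneic.

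Isotype-treated mice were first set against syngeneic mice, to ask how sterol and fatty acid genes stood in the spleen during the allogeneic response. These groups differed at once in donor strain, in the mismatch of graft and recipient and in the antibody named, which cannot be told apart here. *Tm7sf2* and *Hmgcs1* rose, no member fell by the test, and the 2 called members were 7.14% of the 28, beside 6.62% of all tested probe sets, of which 2.49% were called higher and 4.12% lower. The share of members called was thus near that of the whole array. The median differences of the sterol and fatty acid branches had opposite signs. Of the 16 tested sterol enzymes, 13 were higher in isotype mice with a median log2 difference of 0.32, while the 9 fatty acid enzymes had 4 higher and 5 lower with a median of −0.20. The fatty acid branch was itself split, with a median of 0.19 for the 3 synthesis genes and of −0.40 for the 6 elongases and desaturases. Over all 28 members the median was 0.23, with 19 positive and 9 negative, and over all tested probe sets it was −0.011.

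*Tm7sf2* encodes a sterol reductase that acts on the product of the lanosterol demethylase *Cyp51*. Its signal was 193 and 211 for day 0, 230.3 and 266 for day 3, 152 and 179.7 for isotype and 36.3 for syngeneic. All 6 allogeneic arrays stood above the syngeneic array, and the isotype mean was 4.57 times the syngeneic signal. On the log2 scale *Tm7sf2* rose by 1.32 ± 0.21 (SE) in isotype mice, with an adjusted p of 0.0190 by limma. The syngeneic signal lay under the filter, so this gene entered the test through the groups in which it was high. Its call ended without isotype replicate 1 (adjusted p = 0.0505) and without isotype replicate 2 (adjusted p = 0.0693), and it held without each of the other 4 allogeneic arrays.

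*Hmgcs1* encodes the synthase that makes HMG-CoA, the substrate of the rate-limiting reductase of the pathway. Its signal was 1195 and 1294 for day 0, 1199 and 1094 for day 3, 1315 and 1359 for isotype and 689 for syngeneic. The isotype mean was 1.94 times the syngeneic signal, and the groups did not overlap. The log2 difference was 0.91 ± 0.19 (SE), with an adjusted p of 0.0461 by limma, close to the threshold. The probe set behind that call stood apart from the gene's other 3 probe sets, which the array's design takes from the same transcript record and which differed by −0.37, −0.36 and 0.072 between isotype and syngeneic mice. With the 4 probe sets averaged, the *Hmgcs1* difference was 0.062 (adjusted p = 0.894), and leaving out any 1 of the 6 allogeneic arrays put the adjusted p at 0.0830 to 0.122.

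The remaining mevalonate genes had positive differences, none of them called. *Fdps*, which makes farnesyl diphosphate, had 1387 and 1034 on the isotype arrays, against 815 on the syngeneic array, which made a difference of 0.53. *Mvd*, the decarboxylase that makes isopentenyl diphosphate, differed by 0.33. *Idi1*, the isomerase of that product, differed by 0.30, with 413 and 404 on the isotype arrays, against 323 on the syngeneic array. The phosphomevalonate kinase gene *Pmvk* differed by 0.20, and its isotype arrays, at 294 and 162, lay on both sides of the syngeneic array at 185. *Pmvk* thus showed the widest spread of this group, with a standard error of 0.43.

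The squalene and lanosterol steps had the highest median of any step, at 0.71 over 3 genes. *Lss* encodes lanosterol synthase, which closes the sterol rings. It gave 442 and 370.0 for day 0, 447 and 352 for day 3, 281 and 405 for isotype and 144 for syngeneic. The syngeneic array was again the lowest of the 7, and the difference was 1.00 ± 0.28 (SE), with an adjusted p of 0.0924 by limma. *Sqle*, the squalene epoxidase and a second control point of the pathway, gave 839 and 598 for day 0, 545 and 543 for day 3, 595 and 572 for isotype and 336 for syngeneic. Its difference was 0.71 ± 0.24 (adjusted p = 0.149 by limma). *Fdft1*, squalene synthase, differed by 0.21, and its other 3 tested probe sets by 0.47 to 1.26, all in the same direction.

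The enzymes from lanosterol to cholesterol split most widely, between *Tm7sf2* and *Msmo1*. *Msmo1* encodes the methylsterol oxidase that starts the removal of the methyl groups of the sterol ring. It gave 218 and 159 for day 0, 163 and 148 for day 3, 218 and 194 for isotype and 457 for syngeneic. Here the syngeneic array was the highest of the 7, and the difference of −0.99 ± 0.23 (SE) had an adjusted p of 0.0591 by limma. *Nsdhl*, the dehydrogenase that takes the next step after *Msmo1*, gave 800 and 634 for day 0, 724 and 813 for day 3, 819 and 700.2 for isotype and 447 for syngeneic. *Nsdhl* was lowest on the syngeneic array, opposite to *Msmo1*, with a difference of 0.70 ± 0.23 (adjusted p = 0.141 by limma). *Hsd17b7*, the ketoreductase of the same demethylation complex, differed by 0.58, and *Ebp*, the sterol isomerase, by 0.25. *Cyp51* differed by 0.031, and *Sc5d* and *Dhcr7*, which act last on the ring, by −0.17 and −0.22.

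Of the regulators, *Srebf2* gave 958 and 1075 for day 0, 1256 and 1119.8 for day 3, 1128 and 936 for isotype and 731 for syngeneic, a difference of 0.46 ± 0.22 (adjusted p = 0.273 by limma). *Srebf1* differed by −0.039, and its isotype arrays at 858 and 1132 lay on both sides of the syngeneic array at 1014. *Stard4*, an SREBP target that carries cholesterol between membranes, gave 758 and 979 for day 0, 756 and 657 for day 3, 795 and 675 for isotype and 423 for syngeneic. On the probe sets used, the syngeneic array was lowest for both *Srebf2* and *Stard4*, and the *Stard4* difference was 0.73 ± 0.24 (adjusted p = 0.142 by limma). The other tested *Srebf2* probe set differed by 0.018, with isotype arrays at 961 and 703 on both sides of the syngeneic array at 812.

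**Figure D1:**
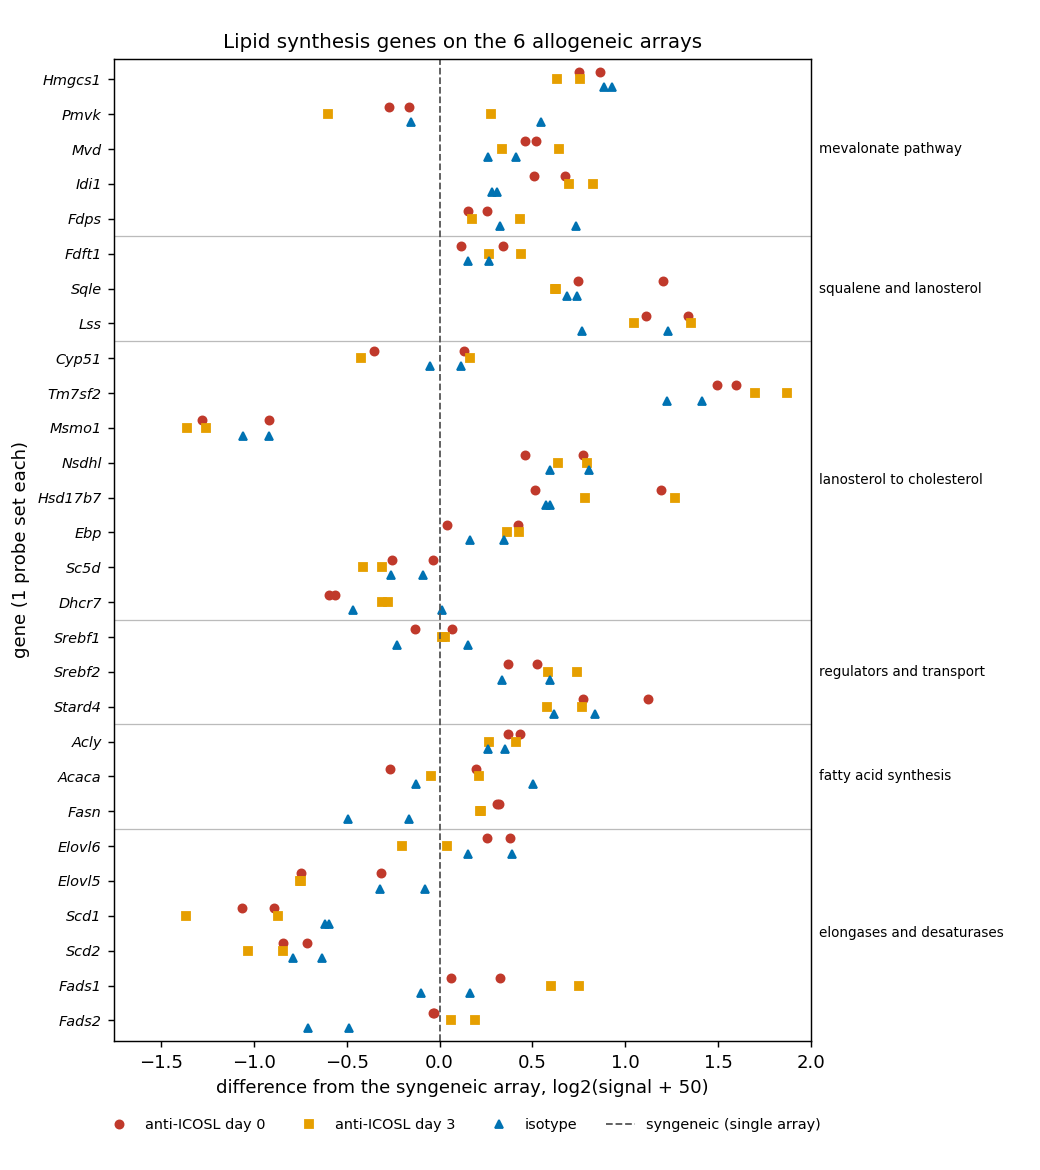
Each point is 1 allogeneic array's log2(signal + 50) minus that of the single syngeneic array (dashed line at 0), for the 28 tested members ordered by pathway step, with anti-ICOSL day 0, anti-ICOSL day 3 and isotype arrays in separate colours. All 6 allogeneic arrays stood above the syngeneic array for 14 members, among them *Tm7sf2*, *Lss* and *Hmgcs1*, and below it for 5, among them *Msmo1*, *Scd1* and *Scd2*. Each gene is shown by the probe set used alone.

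The fatty acid branch had its lowest values among the desaturases. *Scd1* and *Scd2*, which put the first double bond into saturated fatty acids, were both highest on the syngeneic array by the probe sets used. *Scd2* gave 738 and 670 for day 0, 669.6 and 582 for day 3, 785 and 698 for isotype and 1242 for syngeneic. *Scd1* gave 1004 and 885 for day 0, 708 and 1021 for day 3, 1225 and 1243 for isotype and 1905 for syngeneic. On the other tested *Scd1* probe set the isotype arrays, at 199 and 248, lay on both sides of the syngeneic array at 234. Neither gene passed the test, with −0.71 ± 0.21 for *Scd2* (adjusted p = 0.107 by limma) and −0.61 ± 0.26 for *Scd1* (adjusted p = 0.230 by limma). Both genes lie on chromosome 19, as do the desaturases of polyunsaturated fatty acids *Fads1*, *Fads2* and *Fads3*, which are consecutive protein-coding genes there.

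*Fads2* gave 159.5 and 160.2 for day 0, 195 and 174 for day 3, 81.5 and 103 for isotype and 165 for syngeneic. The isotype arrays were thus the lowest of all, and their mean of 92.2 lay under the filter. The *Fads2* difference between isotype and syngeneic mice was −0.60 ± 0.20 (adjusted p = 0.150 by limma), and its other tested probe set gave −1.43. *Fads1* differed by 0.032, and *Elovl5*, the elongase of polyunsaturated chains, by −0.20. *Fasn*, fatty acid synthase, differed by −0.33, with 1003 and 789 on the isotype arrays, against 1132 on the syngeneic array. *Acly*, which makes cytosolic acetyl-CoA from citrate, differed by 0.31, *Elovl6*, the elongase of saturated chains, by 0.27, and *Acaca*, acetyl-CoA carboxylase, by 0.19, none of them called. The other tested probe sets of *Acly* differed by 0.12 and 0.00075, with isotype arrays on both sides of the syngeneic array.

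With no adjustment, 9 of the 28 members (32.1%) had p under 0.05 by limma in this comparison, beside 23% of all tested probe sets and 23.7% of all tested genes. The isotype arrays lay above the syngeneic array for 15 members and below it for 7, where 38% and 38.8% of all tested probe sets did so. All 6 allogeneic arrays lay above the syngeneic array for 14 of the 28 members (50% against 26% of all tested probe sets) and below it for 5 (17.9% against 26.4%). By branch and on the probe sets used, 11 of the 16 sterol enzymes had all 6 arrays above and 2 had all 6 below. Of the 9 fatty acid enzymes 1, *Acly*, had all 6 above and 3 had all 6 below. The syngeneic group is a single array, so each of these counts turns on that array.

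**Figure D2:**
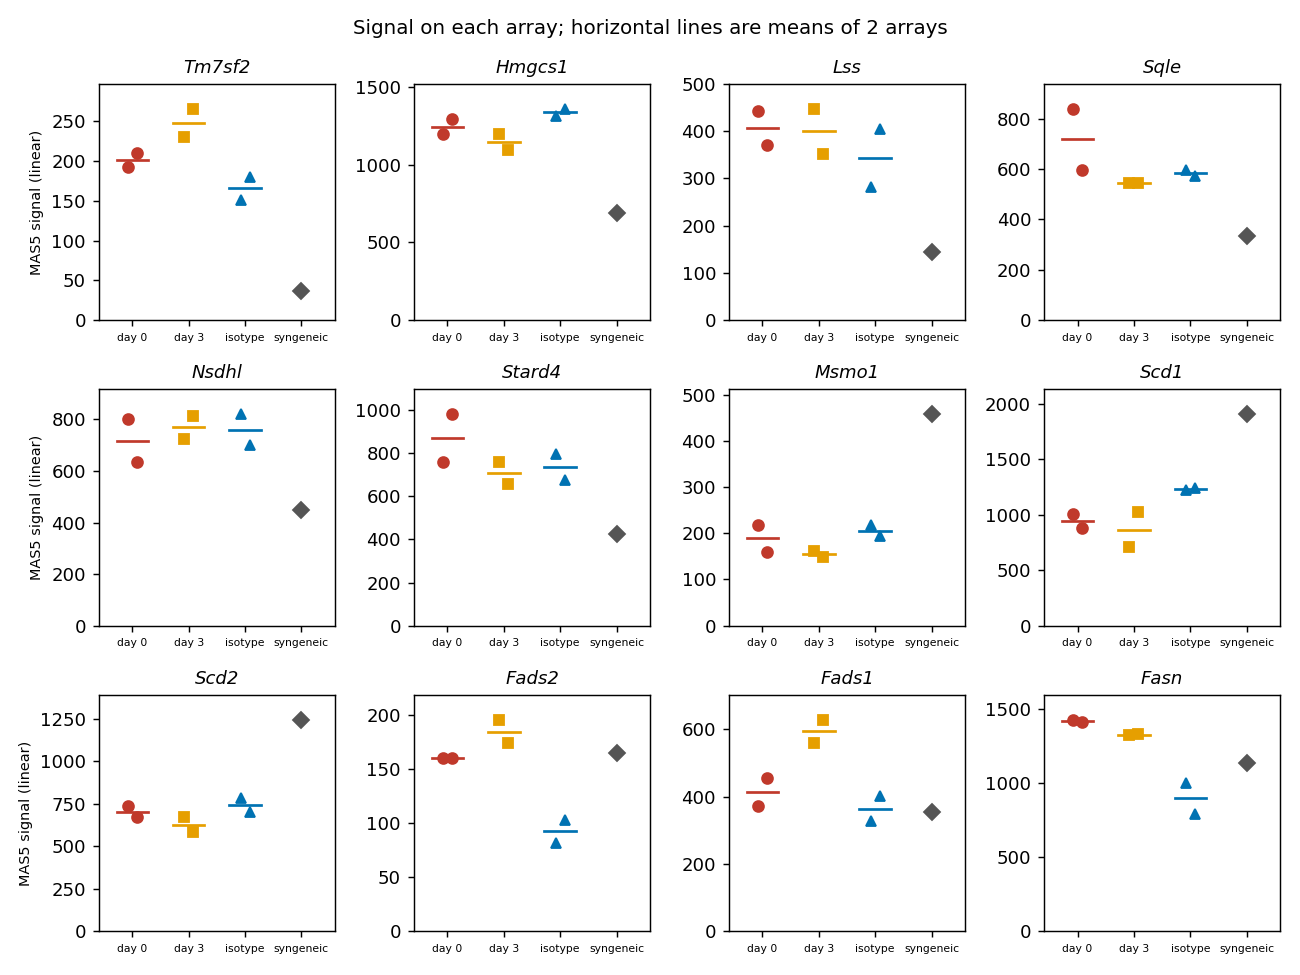
MAS5 signal (linear axis from 0) of 12 members on each array, with the anti-ICOSL day 0, anti-ICOSL day 3, isotype and syngeneic groups from left to right and a line at the mean of each pair of arrays. *Tm7sf2*, *Hmgcs1*, *Lss*, *Sqle*, *Nsdhl* and *Stard4* were lowest on the syngeneic array, *Msmo1*, *Scd1* and *Scd2* were highest there, and *Fads2* and *Fasn* were lowest on the isotype arrays. Each gene is shown by the probe set used alone.

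Cell type markers moved between these groups as well. The 11 macrophage markers summed to 5705 to 5937 on the isotype arrays, against 49512 on the syngeneic array, and 10 of them fell. Among these 10, *Cd163* lay under the filter in every allogeneic group, so it entered the test through the single syngeneic array, where it was high. The 7 neutrophil markers summed to 9645 to 10261 on the isotype arrays, against 37153 on the syngeneic array, and all 7 fell. The 13 proliferation markers with a probe set summed to 56666 to 56735 on the isotype arrays, against 33686 on the syngeneic array, and 4 of them rose, as did 2 of 7 T cell markers. Of the 6 erythroid markers with a probe set 3 fell, of 10 exocrine pancreas markers 1 fell, and none of the 4 tested B cell markers or 3 tested adipocyte markers passed. In RNA of whole spleen, fewer cells of a type and less RNA per cell cannot be told apart, and the part of these markers in the members' differences was not tested.

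Several members were read by more than 1 probe set. For 14 genes there were 20 other tested probe sets, and 18 of the 20 had the same sign as the one used between isotype and syngeneic mice. The 2 with the opposite sign were those of *Hmgcs1*. In the antibody comparisons fewer had the same sign, with 9 of the 20 for day 0 against isotype, 10 for day 3 against isotype and 11 for day 0 against day 3. *Stard4* and *Scd2* held together closely, at 0.73 and 0.53 for *Stard4* and at −0.71, −0.83 and −0.44 for *Scd2*. For *Idi1* the other probe set gave a larger difference, 1.07 against 0.30, and for *Scd1* a smaller one, −0.061 against −0.61.

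**Figure D3:**
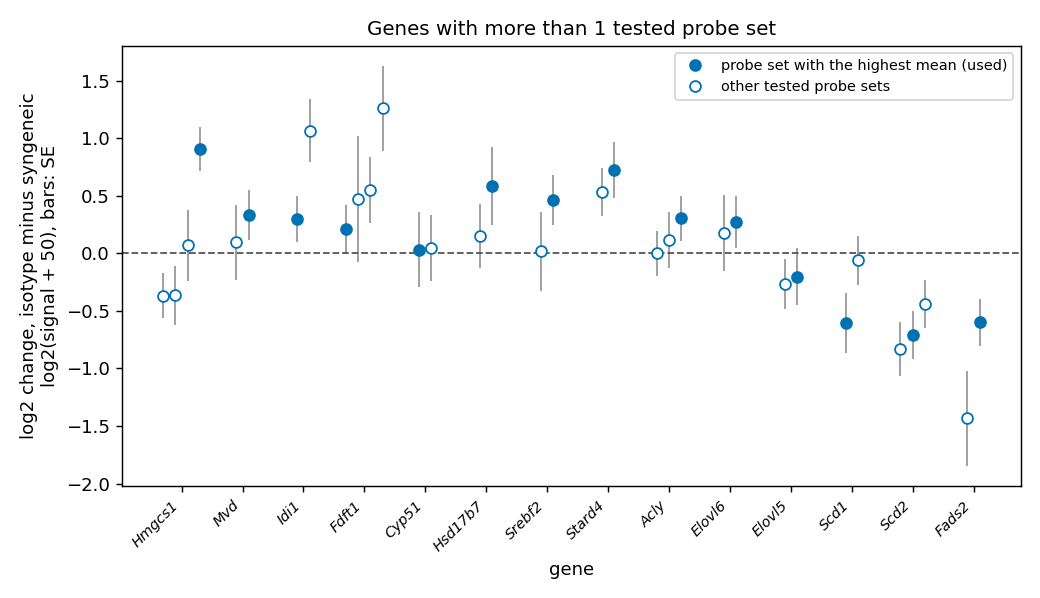
Log2 difference of isotype minus syngeneic (vertical axis, log2(signal + 50), bars are SE) for every tested probe set of the 14 members that had more than 1, with the probe set used filled and the others open. The *Hmgcs1* probe set used lies at 0.91 and its others between −0.37 and 0.072, while all probe sets of *Fdft1* lie above 0 and all of *Scd2* below it.

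Other genes of the same system were read from 3 lists. Of 20 further SREBP pathway genes, 13 had a tested probe set, none rose and 3 fell in isotype against syngeneic mice, with a median of −0.0016. *Lpin1*, a phosphatidate phosphatase, had 56.3 and 72.4 on the isotype arrays, against 826 on the syngeneic array, and fell by 2.94 on the log2 scale (adjusted p = 0.00395 by limma). *Fads3*, the neighbour of *Fads2*, had 7.3 and 8.8 on the isotype arrays, against 173 on the syngeneic array, and fell by 1.94 (adjusted p = 0.0118 by limma). *Acss2*, which makes acetyl-CoA from acetate, had 165.5 on both isotype arrays and 438 on the syngeneic array, and fell by 1.18 (adjusted p = 0.0483 by limma). The group means of *Lpin1* and *Fads3* lay under the filter in all 3 allogeneic groups, so both entered the test through the single syngeneic array, where they were high.

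In the efflux and LXR list all 10 tested genes were lower in isotype mice, with a median of −1.03, beside −0.011 for all tested probe sets, and 4 fell. *Apoe*, the lipoprotein that carries cholesterol away from macrophages, had 489 and 350 on the isotype arrays, against 6903 on the syngeneic array, and fell by 3.91 (adjusted p = 0.00267 by limma). *Abca1*, which exports cholesterol, fell by 2.20 (adjusted p = 0.0245 by limma). *Lipa*, the lysosomal lipase that frees cholesterol from its esters, fell by 2.02 (adjusted p = 0.00537 by limma). *Npc1*, which moves that cholesterol out of the lysosome, fell by 1.28 (adjusted p = 0.0231 by limma), and it too reached the filter through the syngeneic array alone. *Apoe*, *Abca1* and *Lipa* are known to be abundant in macrophages, and 10 of the 11 macrophage markers fell in the same comparison. The part of cell type markers in the differences of this list was not tested. In the fatty acid oxidation list 13 of 14 genes were tested, none passed, and the median was −0.0032.

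Anti-ICOSL given from day 0 was next set against isotype, to ask whether blocking the costimulator's ligand from the time of transplantation moved these genes. No member was called by limma, and 0% of all tested probe sets were, the smallest adjusted p of any probe set being 0.0853. At an unadjusted p under 0.05 there were 2 of 28 members (7.14%), *Fasn* and *Fads2*, beside 7.18% of all probe sets. The isotype mean of *Fads2* lay under the filter, so it entered this test through the groups in which it was high. The members' median was 0.014 with 15 positive and 13 negative, and the median of all probe sets was 0.016. For 7 members both day 0 arrays lay above both isotype arrays, and for 5 they lay below, with 19.4% and 16.2% of all probe sets in those classes.

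*Fasn* gave 1425 and 1413 for day 0, 1322 and 1327 for day 3, 1003 and 789 for isotype and 1132 for syngeneic. All 4 antibody arrays stood above both isotype arrays and above the syngeneic array. The difference of day 0 from isotype was 0.64 ± 0.18 (SE), with an adjusted p of 0.578 by limma over all tested probe sets. *Fads2*, whose arrays are given above, differed by 0.57 ± 0.17 (adjusted p = 0.590 by limma), with both day 0 arrays above both isotype arrays and close to the syngeneic signal. On its other tested probe set the difference was 0.31, and the day 0 arrays, at 56 and 145, lay on both sides of the isotype arrays at 70.5 and 62.

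Among the next members, *Idi1* had 481 and 546 for day 0, against 413 and 404 for isotype, a difference of 0.29. Its other probe set gave −0.13. *Hsd17b7* differed by 0.27, but its day 0 arrays, at 250.3 and 429, lay on both sides of the isotype arrays at 267 and 263. Its other probe set gave 0.52, with day 0 arrays at 181.7 and 245.5 above the isotype arrays at 136.2 and 128.6. *Sqle* differed by 0.26, with a day 0 pair of 839 and 598. On the low side *Pmvk* gave 145 and 159.6 for day 0, against 294 and 162 for isotype, a difference of −0.42 ± 0.35. *Scd1* differed by −0.37, *Dhcr7*, the last reductase of cholesterol synthesis, by −0.35, *Elovl5* by −0.33 and *Fdps* by −0.32. On the probe sets used, the smallest adjusted p of these 8 was 0.786 by limma, and their 95% intervals held 0. *Tm7sf2* and *Hmgcs1*, the members called between isotype and syngeneic mice, differed by 0.23 and −0.10.

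Anti-ICOSL from day 3 was compared with the same isotype arrays, so the day 0 and day 3 comparisons share their controls. No member was called by limma (0% of all tested probe sets were, with a smallest adjusted p of 0.0971). At an unadjusted p under 0.05 there were 7 of 28 members (25%), beside 10.2% of all probe sets. Of the 7, 5 were among the 9 fatty acid enzymes, with 3 of these higher and 2 lower. *Fads2*, *Fads1*, *Fasn*, *Tm7sf2* and *Idi1* were on the high side and *Elovl5* and, at the edge of the threshold, *Scd1* on the low side. The members' median was −0.017 with 14 positive and 14 negative, against 0.032 for all probe sets. With the arrays centred on their medians, the value for all probe sets became −0.069 and the members' median −0.12, a shift that is the same for every probe set of an array. For 7 members both day 3 arrays lay above both isotype arrays, and for 8 they lay below, with 24.3% and 18.8% of all probe sets in those classes.

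The polyunsaturated desaturases gave the largest differences. *Fads2* differed by 0.72 ± 0.17 (SE; adjusted p = 0.367 by limma), with 195 and 174 for day 3, against 81.5 and 103 for isotype. Here too it entered the test through the groups in which it was high, as its isotype mean lay under the filter. Its other tested probe set differed by 0.60. *Fads1* gave 372 and 456 for day 0, 561 and 628 for day 3, 326 and 403 for isotype and 354 for syngeneic. The day 3 pair was the highest of all groups for *Fads1*, and the difference from isotype was 0.64 ± 0.19 (adjusted p = 0.399 by limma). *Fasn* differed by 0.55 ± 0.18 (adjusted p = 0.415 by limma). *Tm7sf2* differed by 0.47 ± 0.17 (adjusted p = 0.454 by limma), and its day 3 arrays were also the highest of the 7.

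*Idi1* gave 556 and 612 for day 3, against 413 and 404 for isotype, a difference of 0.46 ± 0.16 (adjusted p = 0.446 by limma). Its other probe set gave −0.15, the opposite sign. *Hsd17b7* and *Scd2* also had probe sets of opposite sign here. The *Hsd17b7* probe set used gave 0.44 and the other −0.19, while the *Scd2* probe set used gave −0.23 and the others 0.38 and 0.22. *Elovl5* gave 2071 and 2057 for day 3, 2790 and 3307 for isotype and 3500.4 for syngeneic, and day 3 differed from isotype by −0.55 ± 0.20 (adjusted p = 0.462 by limma). The day 0 arrays of *Elovl5*, at 2806 and 2071, spanned the gap between those groups. *Scd1* differed by −0.51 ± 0.21 (adjusted p = 0.488 by limma), and *Pmvk*, *Elovl6* and *Msmo1* by −0.36, −0.36 and −0.32.

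**Figure D4:**
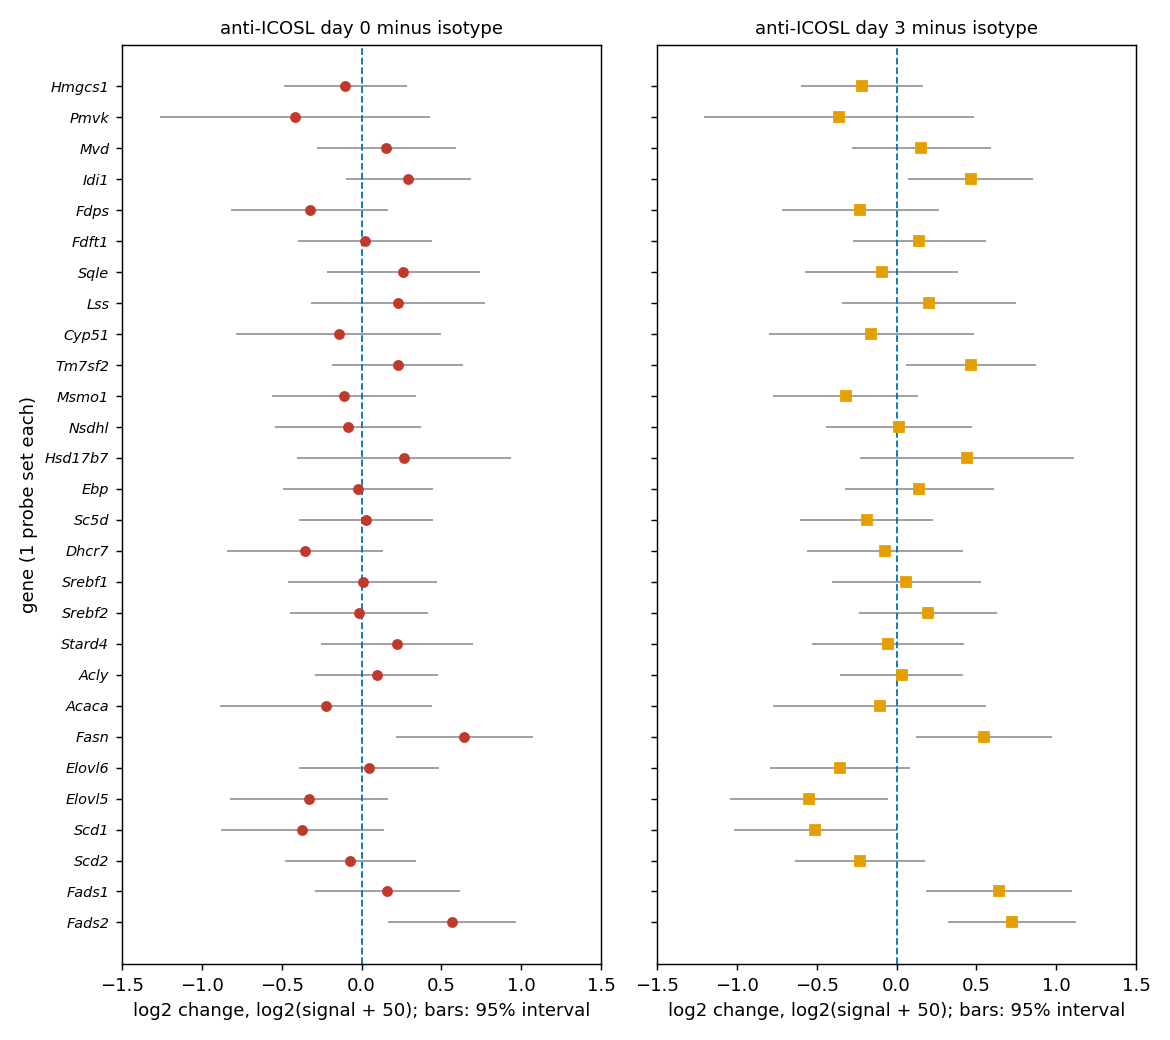
Log2 difference from isotype with its 95% interval for the 28 tested members, for anti-ICOSL from day 0 (left) and from day 3 (right), on log2(signal + 50). The intervals of *Fasn* and *Fads2* lie above 0 in both panels, those of *Fads1*, *Tm7sf2* and *Idi1* in the day 3 panel alone, and those of *Elovl5* and, at its edge, *Scd1* lie below 0 in the day 3 panel; none passed the test after adjustment.

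The start days were then compared directly, as day 0 minus day 3. No member was called by limma, nor was any probe set (0%, with a smallest adjusted p of 0.0914), and 1 member had an unadjusted p under 0.05 (3.57%), beside 6.79% of all probe sets. That member was *Fads1*, at −0.48 ± 0.19 (adjusted p = 0.733 by limma), with both day 0 arrays below both day 3 arrays. *Elovl6* gave 425 and 386 for day 0, against 266 and 324 for day 3, a difference of 0.40 ± 0.18 (adjusted p = 0.751 by limma). Its other probe set gave −0.16. *Sqle* differed by 0.35, *Stard4* by 0.27, *Elovl5* by 0.22 and *Sc5d* by 0.21 on the high side. *Dhcr7* differed by −0.28, *Tm7sf2* by −0.24, *Srebf2* by −0.22 and *Hsd17b7* by −0.17 on the low side. *Fdft1*, *Mvd* and *Hsd17b7* had other probe sets that went the opposite way, with 0.42, −0.71 and 0.71 in that order. Those of *Mvd* and *Hsd17b7* had unadjusted p of 0.0363 and 0.0192 by limma. Another *Hmgcs1* probe set gave 0.69 (unadjusted p = 0.00424 by limma), and none of these was called. The median was −0.026 with 14 positive and 14 negative, against −0.014 for all probe sets. For 5 members both day 0 arrays lay above both day 3 arrays and for 6 they lay below, where 18.6% and 20.4% of all probe sets did so.

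In the antibody comparisons the macrophage marker sum was 9061 to 9332 on the day 0 arrays and 8186 to 8894 on the day 3 arrays, against 5705 to 5937 on the isotype arrays. The sum of the 5 B cell markers with a probe set was 9362 to 10483 on the day 0 arrays and 9503 to 10000 on the day 3 arrays, against 13170 to 14857 on the isotype arrays. Exocrine pancreas markers summed to 1295 to 1965 on the day 0 arrays and 2188 to 2545 on the day 3 arrays, against 3565 to 3662 on the isotype arrays. Erythroid markers summed to 1728 to 1808 on the day 0 arrays and 3012 to 3056 on the day 3 arrays, against 2284 to 2497 on the isotype arrays, and for all 6 of them both day 0 arrays lay below both day 3 arrays, 5 with an unadjusted p under 0.05. Neutrophil markers summed to 12596 to 13645 on the day 0 arrays and 10371 to 10839 on the day 3 arrays, against 9645 to 10261 on the isotype arrays. Proliferation markers summed to 57840 to 59155, 57108 to 61159 and 56666 to 56735 in the same order of groups. No marker of any list was called in these comparisons, and the part of these sums in the members' values was not tested. None of the SREBP pathway, efflux or oxidation genes was called either, and *Apoe* and *Abca1* stood at 0.45 and 0.57 for day 0 against isotype and at 0.39 and 0.55 for day 3 against isotype.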

How the data were processed

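Spleen cell RNA of 7 mouse samples (10 µg of RNA each, per the labels) was read on 1-colour Affymetrix arrays. The deposited values are intensity signals on a linear scale, made by the authors with MAS5, per the submitters' processing notes; the MAS5 version and settings are not given in the sources used here. No detection calls were used. Of 22690 probe sets, 64 controls were left out. Platform annotation gave 1 symbol to 20380 probe sets, several to 691 and none to 1555; names came from those with 1.

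From the deposited signals, log2(signal + 50) was fitted with limma 3.58.1 in R 4.3.3 (lmFit and eBayes, 1 model over all 7 arrays, 3 residual and 3.36 prior degrees of freedom). Probe sets with a group mean at or above the 40th percentile of all signals were tested (15372), with Benjamini-Hochberg adjustment over all of them. The fit was tested on simulated data. With 1 or 2 arrays a group, the number of arrays limits the precision.

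Members, lists and tests were chosen with earlier results of these data known. In each comparison, called members and the 5 highest and 5 lowest members were named with values, and other probe sets where they differed in call or, with opposite sign, by over 0.5. Sequences and gene order came from RefSeq, GRCm38.p6. The sample numbers did not pair arrays across groups: deviations from group means correlated at −0.0122, 0.0746 and 0.0436.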

Additional observations from a re-analysis of the deposited data

How the results depend on the processing

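Alternatives changed the pseudocount, filter, normalization, block, samples fitted, variance model, probe set summary or arrays, 1 at a time. Between isotype and syngeneic mice, called probe sets went to 1616 at a filter on the 60th percentile, 542 with no filter, 568 with the compared groups fitted alone and 1786 with limma's trend and robust options, and to 410 to 692 with 1 allogeneic array left out. Called members went to 1 at pseudocount 16, with no filter, with a replicate block and with probe sets averaged, to 4 at the 60th percentile and with trend and robust options, to 0 with the groups alone, and to 0 to 1 with 1 array left out. *Tm7sf2* was called in 12 of 15 alternatives (adjusted p 0.0127 to 0.0693 by limma) and *Hmgcs1* in 5 of 16 (0.00643 to 0.894). *Lss* and *Scd2* passed at the 60th percentile (0.0351 and 0.0441) and with trend and robust options (0.0408 and 0.0444), and *Msmo1* at pseudocount 100 (0.0429) and the 60th percentile (0.0186). No member was called in the antibody comparisons under any of 17 alternatives. Called probe sets there, 0 otherwise, reached 3, 13 and 21 for day 0 against isotype (pseudocount 100, 60th percentile, trend and robust), 2, 8 and 5 for day 3 against isotype, and 6, 7 and 12 for day 0 against day 3. Median centring moved the members' median to 0.32 for isotype against syngeneic and to −0.12 for day 3 against isotype. Signs turned for *Hsd17b7*, day 0 against day 3 (0.27 with probe sets averaged, and −0.51 to 0.16 with 1 array left out, 0.067 without day 3 replicate 1) and day 0 against isotype (−0.069 to 0.61 with 1 array left out, lowest without day 0 replicate 2), for *Sc5d*, day 0 against day 3 (−0.17 with probe sets averaged), and for *Pmvk*, day 3 against isotype (−0.80 to 0.078 with 1 array left out, highest without day 3 replicate 2); none was called, and the cause was not tested. Of 1856 member values under all alternatives, 89 turned sign, none of them called. The replicate block gave 798 called probe sets between isotype and syngeneic mice and put *Hmgcs1* at 0.0766; as the labels' numbers did not pair the arrays, it is given here alone, and it changed no other call of a named member. The single syngeneic array could not be left out of its own comparison.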
